A study of Mus musculus with 8 samples.

Results

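Solute carriers are membrane proteins that move amino acids, sugars, ions, metals, vitamins and metabolites across the plasma membrane or across the membranes of mitochondria, Golgi, lysosomes and endosomes. They carry symbols made of Slc, a family number, a letter and a member number. The members described here are protein-coding mouse genes with such a symbol that reached at least 5 RPKM (reads scaled to gene length and to library depth) in at least 2 of 8 libraries of liver ductal cells. Slc2a1, Slc16a3, Slc4a2, Slc4a4, Slc5a1 and Slc7a11 were left out by name. This left 145 members of 371 protein-coding Slc genes, among 47729 genes listed. Of the 371, 208 reached the level in no library, 14 reached it in a single library, and 4 of those left out by name had reached it. The members came from 41 families, and 142 of them are counted as carriers by their family. Slc9a3r1, Slc9a3r2 and Slc7a6os have carrier symbols and encode other proteins.

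In the bile duct, carriers drive the secretion of bicarbonate, chloride and water into bile and recover bile acids, glucose and amino acids from it. Many depend on gradients that other pumps set up, so a carrier's direction of transport follows its substrate and the ions coupled to it. Mitochondrial carriers feed the organelle with nucleotides and intermediates, and nucleotide sugar carriers supply the Golgi with building blocks for glycans. The measurements are of RNA and say nothing of the amount, place or activity of the proteins.

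The study followed ductal cells from fresh isolation to organoid culture. EpCAM-positive cells, that is cells carrying a surface adhesion protein of bile duct epithelium, were sorted from the livers of C57/B6 mice, all adult, male and healthy, with no genetic change named in the labels. There were 2 libraries of fresh cells (time point 0 h), 2 of cells held 12 h in Matrigel with organoid medium, 1 at 24 h, 1 titled 48h, and 2 of organoids at 6 days, all cultures being in the same medium. The library with 48h in its title has a time point of 24 h in its other labels, so it is called the 48h-titled library and enters no test, like the 24 h library. The labels do not say whether replicates came from separate animals, or whether animals were pooled, so p-values rest on differences between libraries that may be technical only.

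Steps between low values placed the depth of the libraries between 13830175 and 28559796 effective reads, at which 3 reads in a gene of 2 kb are between 0.0525 and 0.108 RPKM. All 7 ductal markers in the list used (among them Epcam, Krt7, Krt19, Sox9, Spp1 and Cdh1) stood at 1 RPKM or more in every library. Their levels moved in different directions. Krt7 went from 103 and 59.5 RPKM in fresh cells to 810 and 409 in organoids. Cdh1 went from 507 and 608 to 78.3 and 254 RPKM, and Sox9 from 239 and 301 to 120 and 140. The 8 hepatocyte markers summed to 973 and 970 RPKM in fresh cells, to 39.97 and 51.8 at 12 h, to 40.1 at 24 h, to 85.2 in the 48h-titled library, and to 7.08 and 10.8 in organoids. In organoids 5 of the 8 were at 0 in each library, and the leading one, Alb, was at 0.0309 and 3.72 RPKM against 488 and 660 in fresh cells. Of 5 immune markers, Ptprc was at 0 in 7 libraries and at 0.0143 RPKM in the other, while Cd74 went from 257 and 254 in fresh cells to 1.90 and 3.44 in organoids, and Cd68 stood at 21.7 and 7.57 in fresh cells and at 22.1 and 7.004 in organoids. Csf1r went from 5.21 and 10.9 to 1.92 and 1.79 RPKM, and Lyz2 from 2.07 and 1.89 to 1.66 and 2.62. Endothelial markers summed to at most 2.92 RPKM and mesenchymal markers to at most 12.8 RPKM in any library. In bulk libraries, fewer cells of a type and less RNA per cell cannot be told apart.

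Summed over the 145 members, expression was 3333 and 3167 RPKM in fresh cells, 3893 and 3524 at 12 h, 3937 at 24 h, 4490 in the 48h-titled library, and 3927 and 4318 in organoids. That was between 0.880% and 1.22% of all RPKM in a library. The members were chosen by these RPKM levels, which are given as a description. The median member stood at 9.54 and 8.35 RPKM in fresh cells, 11.5 and 10.9 at 12 h, 11.4 at 24 h, 10.9 in the 48h-titled library, and 6.51 and 10.9 in organoids. The first organoid library was below the second for 115 of 145 members (79.3%), against 71.3% of the 8635 genes at 5 RPKM or more in at least 2 libraries, and more than 2-fold below for 59. The median member differed by 0.31 on the log2 scale between the fresh libraries, by 0.38 between the 12 h libraries and by 0.72 between the organoid libraries. The same medians over the 8635 genes were 0.27, 0.51 and 0.72.

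Across libraries, 55 members were at 5 RPKM or more in all 8, and 91, 90 and 86 were so in both libraries of fresh cells, 12 h culture and organoids. The 24 h library listed 20 members below 0.1 RPKM (13.8%), against 12.5% of the 8635 genes, and 10 of these were at 0. In fresh cells no member was below 0.1 RPKM, against 0.695% and 0.463% of the 8635 genes. Reaching the level in both libraries of 1 group and in no other library was the case for Slc2a2, Slc23a2, Slc26a1 and Slc34a2 in fresh cells, for 1 member at 12 h, and for no member in organoids. For these 5 a difference from other groups is built into the choice. The same holds in part for Slc16a10, which reached the level in both fresh libraries and the 48h-titled library only. Just inside the level were, among others, Slc34a2 and Slc8b1, whose second highest values were 5.19 and 5.40 RPKM. Just outside were Slc10a7, Slc4a1ap and Slc25a29, at 4.70, 4.66 and 4.65 RPKM.

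The 145 were sorted into substrate classes by family number, with exceptions for single genes. A class name thus need not give the substrate of each member. Slc35b2, for example, carries a sulfate donor, and Slc22a17 is a receptor. The classes were 29 mitochondrial carriers, 22 carriers of nucleotide sugars and sugar phosphates, 20 of nucleosides, vitamins, choline and lipids, 19 of amino acids and peptides, 19 of trace metals and heme, 17 of ions, 9 of sugars and monocarboxylates, 7 of organic ions and bile acids, and 3 genes named after a carrier. Amino acid carriers made up 25.98% and 30.4% of the members' summed RPKM in fresh cells and between 7.28% and 12.9% in the 6 cultured libraries. Mitochondrial carriers made up 28.4% and 24.965% in fresh cells and between 31.96% and 52.3% in culture. These ranges did not overlap, and no test was made because the levels chose the members. Shares within a library are parts of a fixed whole, so a lower amino acid share by itself raises the other shares. The separations of the amino acid and mitochondrial shares are thus not independent of each other. In RPKM, the mitochondrial carriers summed to 947 and 791 in fresh cells and to between 1126 and 2053 in culture. Without Slc3a2, the amino acid share was 15.6% and 19.1% in fresh cells and between 5.44% and 10.3% in culture. Without Slc25a1, which alone made up 20.3% of the members' sum in the first organoid library, the mitochondrial share was 25.99% and 23.7% in fresh cells and between 29.5% and 40.1% in culture. The trace metal share lay between 15.1% and 20.3% and the nucleotide sugar share between 9.63% and 12.96%. Ion carriers made up between 2.54% and 7.27% and organic ion carriers between 0.752% and 2.53%, both lowest in the first organoid library.

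**Figure D1:**
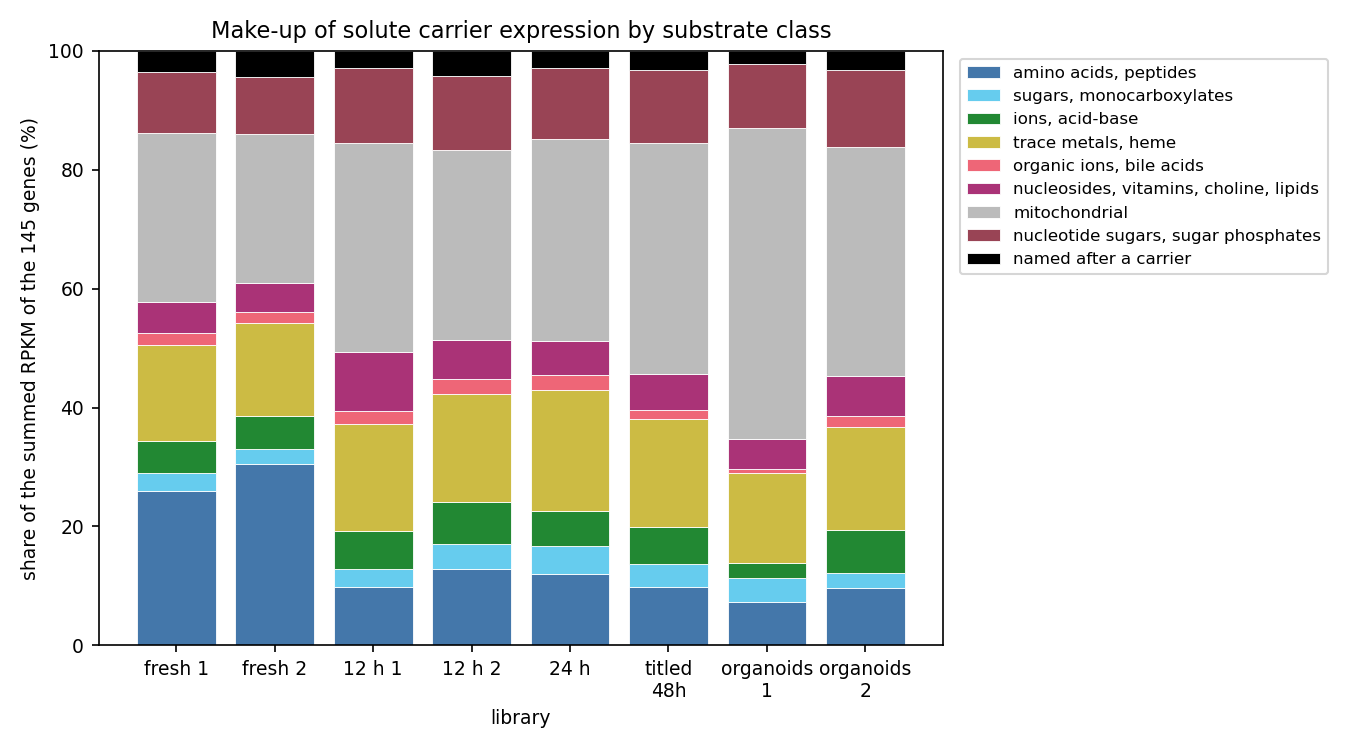
Share of the summed RPKM of the 145 members (vertical axis, percent) that each substrate class made up, in each of the 8 libraries (1 stacked bar per library). The amino acid segment at the bottom spans 25.98% and 30.4% in the fresh libraries and at most 12.9% in the others, and the mitochondrial segment is widest in the first organoid library, at 52.3%.

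At 12 h, 12 of 145 members (8.28%) passed the test against fresh cells, 6 higher and 6 lower, beside 6.81% of all 12900 genes tested (3.09% higher and 3.72% lower) and 7.12% of the 8635 genes at the members' level (4.16% higher and 2.96% lower). The test was limma on log2(RPKM + 1) with Benjamini-Hochberg adjustment over all genes and a threshold of 0.05. Folds given for single genes are ratios of mean RPKM and log2 changes are means on the log2(RPKM + 1) scale, so they can differ. Among the higher were Slc4a11, Slc52a2, Slc48a1, Slc35c2 and Slc25a4. Lower were Slc2a2, Slc16a10, Slc26a1, Slc34a2, Slc37a1 and Slc7a1. Setting aside the 5 members that reached the level in 1 group alone, 6 of 140 were higher and 3 lower. When libraries were centred on their medians the split was 6 higher and 12 lower, and with quantile normalization 6 higher and 10 lower. Without either fresh library 0 members passed, without the first 12 h library 0, and without the second 2, namely Slc2a2 and Slc26a1. With no filter on low values 4 passed.

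In organoids, 15 members (10.3%) passed against fresh cells, 5 higher and 10 lower, beside 10.1% of all genes tested (5.15% higher and 4.94% lower) and 11.7% of the 8635 (6.74% and 4.92%). Higher were Slc4a11, Slc25a4, Slc44a2, Slc35b2 and Slc25a11. Lower were Slc38a4, Slc25a25, Slc2a2, Slc7a1, Slc26a1, Slc3a2, Slc16a10, Slc25a33, Slc23a2 and Slc7a5. Without the 5 single-group members the counts were 5 higher and 7 lower of 140. Leaving out either fresh library left 0 calls, leaving out the first organoid library left 4 members in all, and with no filter on low values 8 passed. Both comparisons share the fresh libraries, and 6 members passed in both, namely Slc4a11, Slc25a4, Slc2a2, Slc7a1, Slc26a1 and Slc16a10. For Slc2a2 and Slc26a1, and in part for Slc16a10, the difference from fresh cells was built into the choice. Passing in both was not counted for other genes, so the 6 do not show a trait of the carriers.

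Between organoids and 12 h culture, limma called 0 of 145 members, beside 2.0% of all genes tested (1.38% higher and 0.620% lower) and 2.20% of the 8635 (1.52% and 0.683%), while 31 members (21.4%) had an unadjusted p under 0.05, beside 19.1% of all genes tested and 18.8% of the 8635. The lowest adjusted p was 0.0693, for Slc7a4, followed by 0.0744 for Slc26a9. The median change over all members was 0.19 at 12 h and 0.17 in organoids against fresh cells on the log2(RPKM + 1) scale, where the median of the 8635 genes was 0.36 and 0.25. Centring the libraries on their medians shifts every gene by the same amount. At 12 h it placed the median at −0.14 for the members and 0.03 for the 8635 genes.

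**Figure D2:**
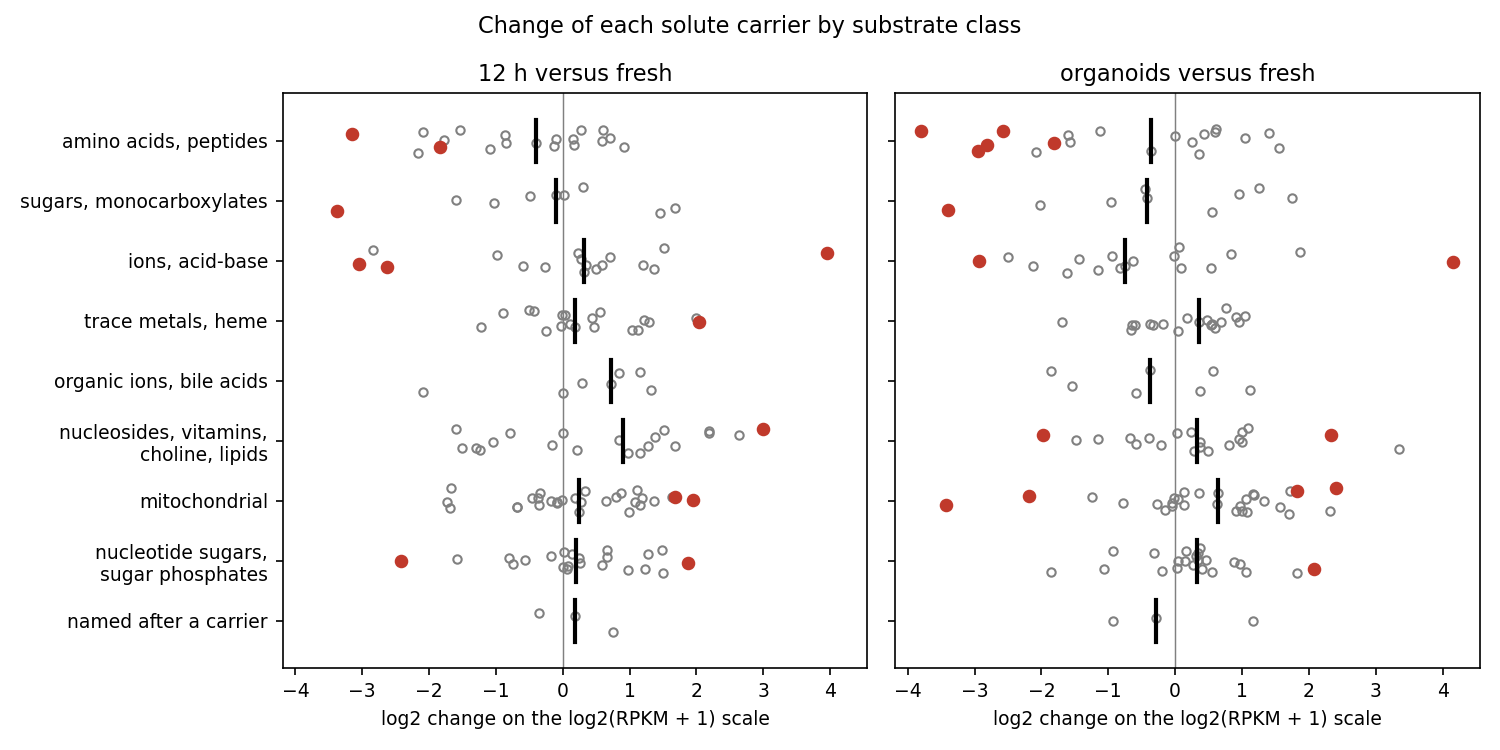
Change of each member on the log2(RPKM + 1) scale (horizontal axis), at 12 h against fresh cells (left) and in organoids against fresh cells (right), by substrate class. Filled red points passed the threshold, open points did not, and black bars are class medians. Amino acid carriers had a median of −0.41 at 12 h and −0.36 in organoids, with 5 red points in organoids, all to the left of 0, and the points farthest to the right in both panels are Slc4a11.

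**Figure D3:**
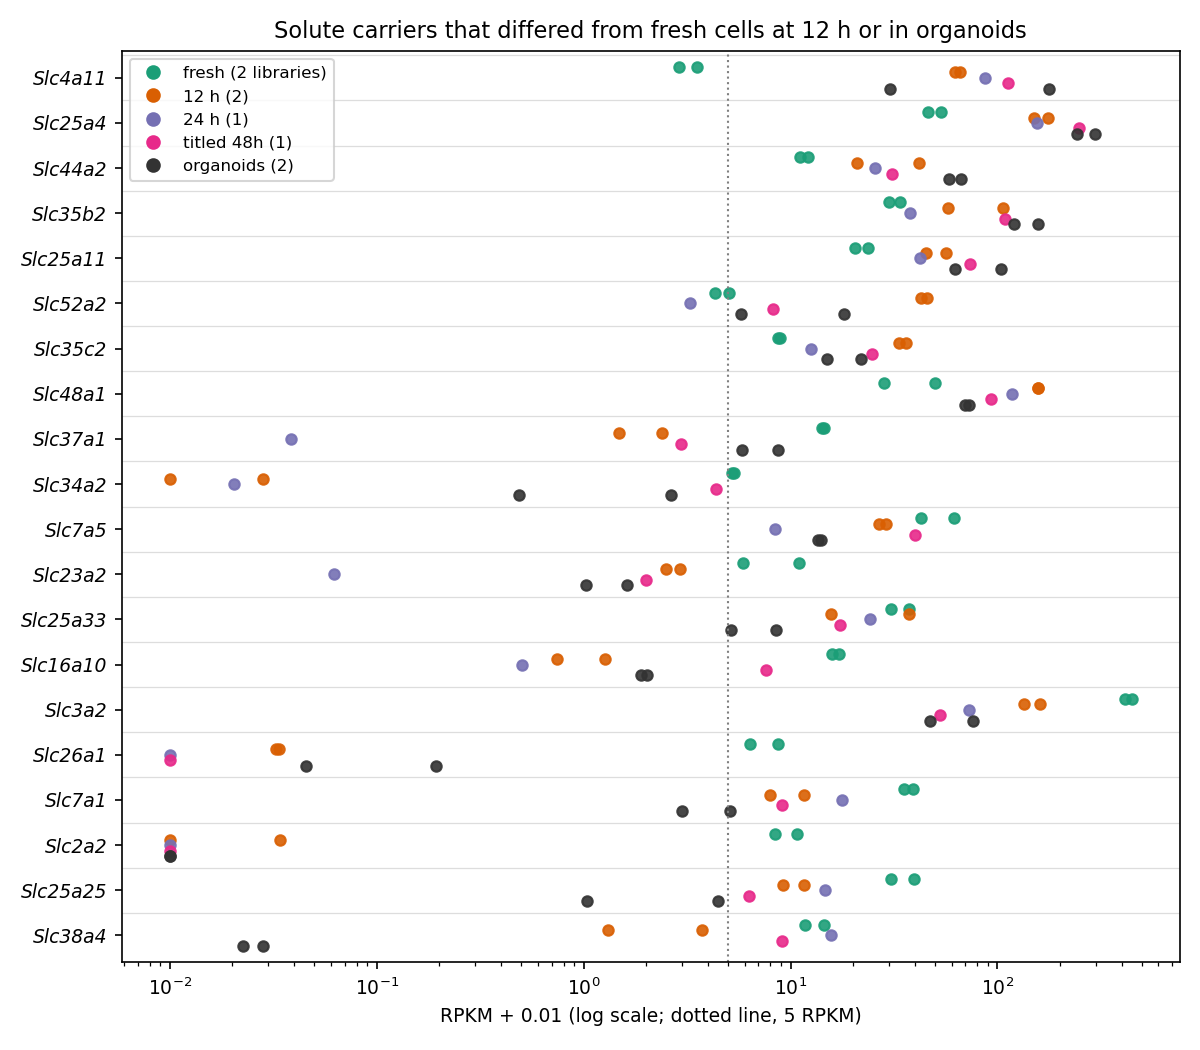
RPKM + 0.01 on a log axis for 20 of the 21 members that passed in at least 1 comparison with fresh cells, with 1 point per library. The dotted line marks 5 RPKM, and members are ordered by their change in organoids. Slc4a11 at the top stood at 2.89 and 3.54 RPKM in fresh cells and at 30.3 or more in every cultured library, and Slc38a4 at the bottom stood under 0.02 RPKM in both organoid libraries.

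Of the 19 amino acid carriers, 0 rose and 2 fell at 12 h, and 0 rose and 5 fell in organoids (26.3%, beside 4.94% of all genes tested that fell). At 12 h 3.72% of all genes tested fell. Both counts of falls include Slc16a10, a member because of its fresh values and placed here by its substrate, not its family. Classes were chosen with earlier results known, and the share of this class was not tested. The heavy subunit Slc3a2, a glycoprotein that several Slc7 light subunits need to reach the cell surface, lies on chr19:8706882-8723369 (GRCm38) and was the most abundant member in fresh cells. It stood at 411 and 445 RPKM in fresh cells, 134 and 160 at 12 h, 72.5 at 24 h, 52.8 in the 48h-titled library, and 76.1 and 47.2 in organoids. Every cultured library was below both fresh ones. In organoids Slc3a2 fell by 2.81 on the log2 scale (SE 0.355, adjusted p = 0.0119, limma). Slc7a5, the light subunit that exchanges leucine and other large neutral amino acids, stood at 42.7 and 61.4 RPKM in fresh cells, 28.8 and 26.7 at 12 h, 8.44 at 24 h, 39.7 in the 48h-titled library, and 13.6 and 14.1 in organoids. It fell by 1.82 in organoids (SE 0.35, adjusted p = 0.0275, limma), and its fresh and organoid values did not overlap.

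The other light subunits among the members did not go the same way. Slc7a6, which exchanges cationic for neutral amino acids, stood at 35.99 and 42.0 RPKM in fresh cells, at 31.3 and 61.7 at 12 h and at 47.9 and 73.8 in organoids, and passed in no comparison. Slc7a7, a relative with the same exchange and chosen here after its values were seen, stood at 5.95 and 3.91 RPKM in fresh cells, 4.60 and 4.10 at 12 h, and 13.2 and 19.9 in organoids, and did not pass either. The ratio of Slc3a2 to the sum of Slc7a5, Slc7a6 and Slc7a7 was 4.86 and 4.15 in fresh cells, 2.07 and 1.73 at 12 h, 0.911 at 24 h, 0.490 in the 48h-titled library, and 1.02 and 0.438 in organoids. Both fresh ratios were above that of every cultured library, and in 3 of the 6 cultured libraries the ratio was below 1. The sum covers members only, and Slc7a11, left out by name, is not in it. The ratio of Slc3a2 to Slc7a5 alone was 9.63 and 7.25 in fresh cells and 8.59 at 24 h, so there the fresh and cultured libraries overlapped, and it lay between 1.33 and 5.99 in the other cultured libraries.

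**Figure D4:**
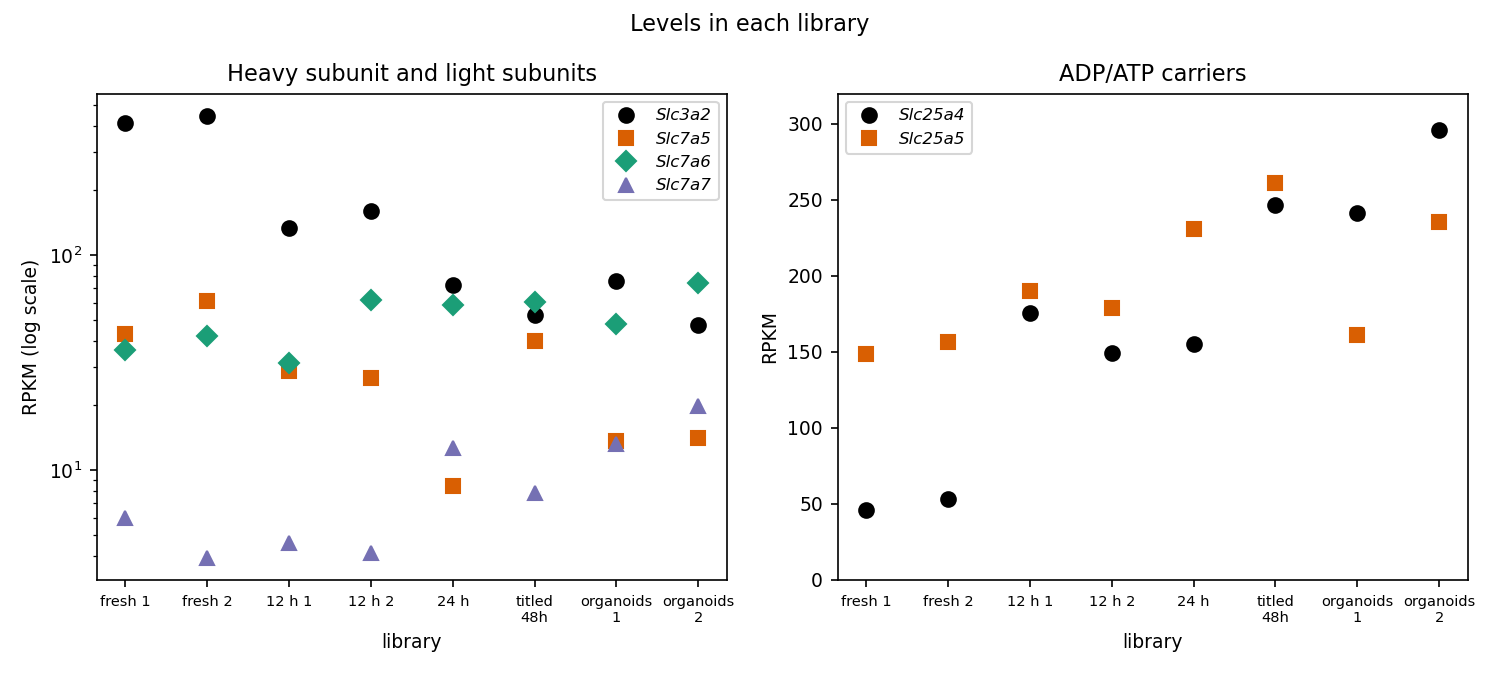
RPKM in each of the 8 libraries (1 point per gene and library). Left, on a log axis, Slc3a2 lies far above Slc7a5, Slc7a6 and Slc7a7 in the fresh libraries, at 411 and 445, and below Slc7a6 in the 48h-titled library and the second organoid library. Right, on a linear axis, the ADP/ATP carrier Slc25a4 lies below Slc25a5 in the first 6 libraries and above it in both organoid libraries, at 241 and 296 against 161 and 236.

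Slc7a1, the cationic amino acid carrier that takes up arginine and lysine, fell in both comparisons. It stood at 38.96 and 35.2 RPKM in fresh cells, 7.96 and 11.6 at 12 h, 17.8 at 24 h, 9.12 in the 48h-titled library, and 2.98 and 5.07 in organoids, with no overlap between fresh and any cultured library. The change was −1.84 at 12 h (SE 0.41, adjusted p = 0.0499, limma) and −2.95 in organoids (SE 0.41, adjusted p = 0.0139, limma). The 12 h call held under 5 of 9 other settings that kept all libraries of the groups compared, and was lost with a pseudocount of 0.1, with no filter, with a replicate block, and without the 24 h library and the 48h-titled library. Slc16a10, which carries aromatic amino acids and thyroid hormone, stood at 15.8 and 17.2 RPKM in fresh cells, 1.26 and 0.734 at 12 h, 0.492 at 24 h, 7.63 in the 48h-titled library, and 2.01 and 1.89 in organoids. Its mean was 16.6-fold lower at 12 h and 8.48-fold lower in organoids than in fresh cells. Outside fresh cells it reached 5 RPKM in the 48h-titled library only, so it was a member because of its fresh values. The difference was thus in part built into the choice, and no p-value is given.

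Slc38a4, a sodium-coupled carrier of neutral amino acids that hepatocytes are rich in, stood at 11.8 and 14.5 RPKM in fresh cells, 3.74 and 1.30 at 12 h, 15.7 at 24 h, 9.05 in the 48h-titled library, and 0.0183 and 0.0125 in organoids. Both organoid values are under what 3 reads would give in a gene of 2 kb, so no fold is given. It passed in organoids (adjusted p = 0.0129, limma). At 24 h, where Slc38a4 was at its highest, the hepatocyte markers summed to 40.1 RPKM, and the part of hepatocyte RNA in its fall was not tested. Slc38a2, a related carrier that cells are known to raise when amino acids are scarce, stood at 153 and 221 RPKM in fresh cells and between 23.6 and 80.4 in all 6 cultured libraries, a range that did not overlap the fresh one, but it did not pass. Slc6a6, the taurine carrier, stayed between 20.3 and 41.7 RPKM in all 8 libraries.

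Among the 9 carriers of sugars and monocarboxylates, Slc2a2 was the 1 that passed against fresh cells. Beside this, 6.81% of all genes tested passed at 12 h and 10.1% in organoids. Slc2a2 encodes GLUT2, the glucose carrier of hepatocytes and beta cells. It stood at 10.7 and 8.42 RPKM in fresh cells and at 0 in all cultured libraries but the second of 12 h, which listed 0.024. It was a member through its fresh libraries alone, so the difference was part of the choice and no p-value is given. A list of 12 hepatocyte-type carriers includes Slc2a2 and Slc38a4. Its sum was 38.2 and 34.3 RPKM in fresh cells and between 1.42 and 15.7 in culture. That sum is not separate from the Slc2a2 result. Slc38a4 gave 11.8 and 14.5 RPKM of it in fresh cells, and 15.7 at 24 h, where the whole sum was 15.7. The hepatocyte markers fell as given above, and the part of hepatocyte RNA in the Slc2a2 result was not tested. Slc50a1, a sugar efflux carrier, had the highest mean of the class and stood at 32.8 and 18.5 RPKM in fresh cells and between 60.2 and 120 in the 6 cultured libraries, without passing the test. The lactate carrier Slc16a1 lay between 4.43 and 20.1 RPKM over the 8 libraries. Slc45a3, a sugar carrier, stood at 23.4 and 22.3 RPKM in fresh cells, 19.7 and 1.98 at 12 h, and 4.16 and 5.72 in organoids, so that the 12 h replicates differed widely. Its highest value was 26.1 RPKM, at 24 h, and it stood at 12.4 RPKM in the 48h-titled library.

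The ion carriers held the member with the largest log2 increase of the 145 in both comparisons with fresh cells. Slc4a11, a member of the bicarbonate carrier family whose product is described as a proton or ammonia-coupled transporter and is mutated in a corneal endothelial dystrophy, lies on chr2:130684113-130697519 (GRCm38). It stood at 2.89 and 3.54 RPKM in fresh cells, 65.6 and 62.6 at 12 h, 87.1 at 24 h, 113 in the 48h-titled library, and 30.3 and 178 in organoids. All 6 cultured libraries were above both fresh ones, but the organoid libraries differed from each other far more than the fresh or the 12 h libraries did. Its mean RPKM at 12 h was 19.97-fold that of fresh cells, and its change on the log2(RPKM + 1) scale was 3.95 (SE 0.76, adjusted p = 0.0365, limma). In organoids its change on that scale was 4.16 (SE 0.76, adjusted p = 0.0243, limma), and it was 5.42 without the first organoid library and 2.90 without the second.

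The other ion carriers that passed were Slc26a1 and Slc34a2, both members through their fresh libraries alone, so no p-value is given for either. Slc26a1, a sulfate and oxalate exchanger, stood at 8.68 and 6.39 RPKM in fresh cells, 0.0236 and 0.0227 at 12 h, 0 at 24 h and in the 48h-titled library, and 0.0357 and 0.183 in organoids. Slc34a2, a sodium-coupled phosphate carrier of epithelia, stood at 5.32 and 5.19 RPKM in fresh cells, 0 and 0.0184 at 12 h, 0.0104 at 24 h, 4.37 in the 48h-titled library, and 0.476 and 2.63 in organoids, and passed at 12 h. Apart from these and Slc4a11, 0 ion carriers passed against fresh cells, where 6.81% of all genes tested passed at 12 h and 10.1% in organoids. The class median was 0.32 at 12 h and −0.75 in organoids, where the median of the 8635 genes was 0.36 and 0.25.

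The ion carriers named next passed in no comparison. Slc12a2, which loads the cell with sodium, potassium and chloride from the basal side, stood at 12.1 and 12.99 RPKM in fresh cells, 42.4 and 33.4 at 12 h, 27.6 at 24 h, 45.9 in the 48h-titled library, and 17.9 and 29.6 in organoids. Every cultured library was above both fresh libraries. The chloride carrier Slc26a9 stood at 1.54 and 0.591 RPKM in fresh cells, 0.00913 and 0.0264 at 12 h, 0.0996 at 24 h, 11.9 in the 48h-titled library, and 3.13 and 12.1 in organoids. Its highest values were thus in the 48h-titled library and in organoids. Slc12a8, of the cation and chloride carrier family, stood at 22.3 and 15.3 RPKM in fresh cells and at 6.22 or less in every cultured library. The phosphate carrier Slc20a2 lay between 10.8 and 47.9 RPKM, with its lowest value in the first organoid library, and the magnesium carrier Slc41a1 between 4.34 and 41.9 RPKM.

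Zinc, copper, iron and heme carriers were the class with the highest single gene in most libraries. Slc39a4, which brings zinc into intestinal cells and is mutated in an inherited zinc deficiency, stood at 263 and 206 RPKM in fresh cells, 278 and 229 at 12 h, 396 at 24 h, 485 in the 48h-titled library, and 373 and 375 in organoids. It was the most abundant member in 5 of the 8 libraries and passed in no comparison. Slc48a1, which moves heme out of lysosomes, stood at 49.98 and 28.2 RPKM in fresh cells, 158 and 157 at 12 h, 117 at 24 h, 92.9 in the 48h-titled library, and 69.6 and 73.2 in organoids. Its 12 h mean was 4.02-fold that of fresh cells (log2 change 2.04, SE 0.37, adjusted p = 0.0343, limma), and it was the 1 metal carrier of 19 that passed at 12 h. In organoids 0 of 19 passed. The shares over all genes tested were 6.81% at 12 h and 10.1% in organoids.

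Among the other metal carriers, the copper importer Slc31a1 lay between 17.3 and 45.5 RPKM in all libraries. Its relative Slc31a2 stood at 73.4 RPKM at 24 h and between 4.30 and 14.6 in the other 7 libraries, so that 1 library set its mean. The ratio of Slc31a2 to Slc31a1 was 1.79 at 24 h, 0.843 and 0.467 in organoids, and between 0.117 and 0.295 in the remaining libraries. The zinc importer Slc39a1 lay between 13.4 and 65.4 RPKM, with its 2 highest values in the second fresh and the second organoid library.

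The 7 carriers of organic ions and bile acids gave 0 calls in each comparison. Over all genes tested, 6.81% were called at 12 h, 10.1% in organoids against fresh cells and 2.0% between organoids and 12 h. Slc22a18, an organic cation carrier, stood at 12.0 and 11.5 RPKM in fresh cells, 23.5 and 17.1 at 12 h, 56.2 at 24 h, 20.4 in the 48h-titled library, and 12.9 and 24.5 in organoids. Slc10a2, the sodium-coupled bile acid carrier that ductal cells use to take bile acids back from bile, stood at 14.6 and 2.67 RPKM in fresh cells, 2.10 and 0.0111 at 12 h, 0 at 24 h, 8.28 in the 48h-titled library, and 0.731 and 2.89 in organoids. Its fresh replicates differed more than 5-fold, and the fresh range overlapped that of organoids. Slc10a3, of the same family, lay between 4.79 and 30.8 RPKM. Slc22a17, a receptor for an iron-binding lipocalin, was at 0.363 RPKM at 24 h and between 5.41 and 14.9 elsewhere, and Slc22a23 was lowest in the first organoid library, at 1.40 RPKM.

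The 20 carriers of nucleosides, vitamins, choline and lipids gave 1 higher call at 12 h, and 1 higher and 1 lower call in organoids. Over all genes tested, 3.09% were higher at 12 h, and 5.15% were higher and 4.94% lower in organoids. Slc52a2, a riboflavin carrier, stood at 4.30 and 5.05 RPKM in fresh cells, 45.8 and 42.5 at 12 h, 3.24 at 24 h, 8.22 in the 48h-titled library, and 5.78 and 18.1 in organoids. Its 12 h mean was 9.45-fold that of fresh cells (log2 change 2.99, SE 0.55, adjusted p = 0.0353, limma), and no other library came near the 12 h values. Slc44a2, a choline carrier-like protein, stood at 11.1 and 12.2 RPKM in fresh cells, 41.6 and 20.9 at 12 h, 25.6 at 24 h, 30.8 in the 48h-titled library, and 66.7 and 58.3 in organoids. Both organoid values were above all others, and the organoid mean was 5.36-fold that of fresh cells (adjusted p = 0.0229, limma). The ratio of Slc44a2 to its relative Slc44a1 was between 1.09 and 1.80 in the first 6 libraries and 7.03 and 3.87 in organoids.

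Slc23a2, a vitamin C carrier that was a member through its fresh libraries alone, stood at 10.96 and 5.86 RPKM there, at 2.91 and 2.48 at 12 h, 0.0524 at 24 h, 1.99 in the 48h-titled library, and 1.62 and 1.02 in organoids. It passed in organoids, a call that was built into the choice and was lost under 6 of 8 other settings that kept all libraries of the groups compared. Slc29a1, the equilibrative nucleoside carrier, stood at 10.9 and 12.2 RPKM in fresh cells, 49.5 and 64.1 at 12 h, 32.99 at 24 h, 62.4 in the 48h-titled library, and 12.0 and 35.997 in organoids, and did not pass. Replicates were far apart for the riboflavin carrier Slc52a3, at 28.6 and 6.88 RPKM in fresh cells and 30.6 and 4.96 at 12 h. Slc29a4, a monoamine carrier of the same family as Slc29a1, was likewise at 28.6 and 1.14 RPKM at 12 h, against 0.206 and 0.356 in fresh cells. The purine nucleoside carrier Slc28a2 stood at 5.70 and 0.175 RPKM in fresh cells, 6.17 and 0.0984 at 12 h, and at 0 in both organoid libraries, so that 1 fresh and 1 12 h library made it a member.

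Mitochondrial carriers are the SLC25 family, of which 1 abundant member here, Slc25a17, is a peroxisomal cofactor carrier. Of 29, 2 rose and 0 fell at 12 h, and 2 rose and 2 fell in organoids, where 3.09% of all genes tested rose and 3.72% fell at 12 h and 5.15% rose and 4.94% fell in organoids. The class median was 0.25 and 0.64, beside 0.36 and 0.25 over the 8635 genes. Slc25a4 and Slc25a5 encode ADP/ATP carriers, which export ATP made in mitochondria. Slc25a4, on chr8:46206797-46211284 (GRCm38), stood at 46.2 and 53.4 RPKM in fresh cells, 175 and 150 at 12 h, 156 at 24 h, 247 in the 48h-titled library, and 241 and 296 in organoids. It rose 3.26-fold at 12 h (log2 change 1.69, SE 0.32, adjusted p = 0.0361, limma) and 5.40-fold in organoids (log2 change 2.41, SE 0.32, adjusted p = 0.0123, limma). Slc25a5 stood at 149 and 156 RPKM in fresh cells, 190 and 179 at 12 h, and 161 and 236 in organoids, and did not pass. The ratio of Slc25a4 to Slc25a5 was 0.310 and 0.341 in fresh cells, 0.923 and 0.835 at 12 h, 0.674 at 24 h, 0.945 in the 48h-titled library, and 1.498 and 1.26 in organoids. Fresh, 12 h and organoid ratios did not overlap.

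Slc25a11, which exchanges malate for 2-oxoglutarate, stood at 23.7 and 20.4 RPKM in fresh cells, 56.1 and 45.3 at 12 h, 42.2 at 24 h, 74.0 in the 48h-titled library, and 62.5 and 104 in organoids. Every cultured library was above the fresh ones, and the organoid mean was 3.76-fold higher (adjusted p = 0.0319, limma). Slc25a1, the citrate carrier that feeds fatty acid and sterol synthesis, stood at 109 and 51.96 RPKM in fresh cells, 142 and 121 at 12 h, 128 at 24 h, 304 in the 48h-titled library, and 797 and 180 in organoids. The organoid libraries differed more than 4-fold, and it did not pass. Slc25a39, which brings glutathione into mitochondria, stood at 99.0 and 47.5 RPKM in fresh cells and between 178 and 261 in all 6 cultured libraries, also without passing.

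The mitochondrial carriers that fell in organoids, Slc25a25 and Slc25a33, carry nucleotides, as does Slc25a4, which rose. Slc25a25, a calcium-regulated exchanger of ATP-magnesium for phosphate, stood at 30.6 and 39.7 RPKM in fresh cells, 11.5 and 9.19 at 12 h, 14.7 at 24 h, 6.29 in the 48h-titled library, and 1.03 and 4.44 in organoids. Its organoid mean was 12.8-fold lower than in fresh cells, and its log2 value fell by 3.43 (SE 0.55, adjusted p = 0.0181, limma). Slc25a33, a pyrimidine nucleotide carrier, stood at 37.3 and 30.4 RPKM in fresh cells, 37.3 and 15.6 at 12 h, 24.1 at 24 h, 17.3 in the 48h-titled library, and 5.17 and 8.49 in organoids, where its mean was 4.96-fold lower (adjusted p = 0.0433, limma). Slc25a23, another exchanger of ATP-magnesium for phosphate, stood at 3.07 and 3.50 RPKM in fresh cells, 0.00902 and 0.756 at 12 h, 0 at 24 h, 10.1 in the 48h-titled library, and 5.82 and 2.24 in organoids. It passed in no comparison.

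Carriers of nucleotide sugars and sugar phosphates had 12 of 22 members at 5 RPKM or more in all libraries, beside 13 of 29 mitochondrial and 8 of 19 amino acid carriers. At 12 h 1 rose and 1 fell, beside 3.09% and 3.72% of all genes tested. In organoids 1 rose and 0 fell, beside 5.15% and 4.94%. Slc35b2, which brings the sulfate donor PAPS into the Golgi, stood at 33.9 and 29.9 RPKM in fresh cells, 107 and 57.5 at 12 h, 37.8 at 24 h, 109 in the 48h-titled library, and 156 and 120 in organoids. Both organoid values were the highest of all libraries, and the mean was 4.33-fold that of fresh cells (log2 change 2.07, SE 0.40, adjusted p = 0.0278, limma). Slc35c2, of a family that includes the GDP-fucose carrier, stood at 8.84 and 8.72 RPKM in fresh cells, 36.2 and 33.3 at 12 h, 12.6 at 24 h, 24.8 in the 48h-titled library, and 14.9 and 21.9 in organoids. It rose 3.95-fold at 12 h (adjusted p = 0.0371, limma). Slc37a1, a glucose 6-phosphate and phosphate exchanger, stood at 14.6 and 14.2 RPKM in fresh cells, 2.38 and 1.47 at 12 h, 0.0287 at 24 h, 2.96 in the 48h-titled library, and 8.67 and 5.82 in organoids. It was 7.47-fold lower at 12 h (adjusted p = 0.0361, limma), and its organoid values lay between those of 12 h and fresh cells. The CMP-sialic acid carrier Slc35a1 lay between 16.5 and 73.1 RPKM with its 2 highest values in the 24 h library and the second 12 h library.

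The 3 proteins that share a carrier's symbol passed in no comparison. The scaffold Slc9a3r1, which anchors ion exchangers and channels at the apical membrane, lay between 40.3 and 85.1 RPKM. Its relative Slc9a3r2 stood at 11.4 and 11.2 RPKM in fresh cells, 20.7 and 18.7 at 12 h, and 27.001 and 26.4 in organoids, with no overlap between these groups. It was near the fresh values at 24 h, at 11.95 RPKM, and at 31.3 RPKM in the 48h-titled library. Slc7a6os, named for lying opposite Slc7a6, stood at 42.1 and 53.4 RPKM in fresh cells and at 20.004 and 29.7 in organoids. The ratio of Slc7a6 to Slc7a6os was between 0.746 and 1.06 from fresh cells to 24 h, 1.81 in the 48h-titled library, and 2.39 and 2.48 in organoids. Exon bases are shared with another gene by 43 members, 7 of them among the 21 that passed, and the sources used here do not say whether counting used strand, so reads of such pairs cannot be told apart. For Slc25a33 the shared part is 14.9% of its exon length, with the antisense gene Gm13068, and for Slc25a11 it is 8.92%, with Rnf167.

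Single libraries stood out for several members. In the 24 h library, beside Slc31a2, the branched-chain and large neutral amino acid carrier Slc43a2 was at 22.7 RPKM against 0.972 to 9.65 elsewhere, and the aspartate and glutamate carrier Slc25a12 was at 25.5 RPKM against 2.33 to 7.10. The uncoupling protein relative Slc25a14 stood at 20.5 RPKM in the 48h-titled library, 0.0441 at 24 h, and between 4.40 and 8.99 in the rest. Slc25a44, a branched-chain amino acid carrier of mitochondria, was at 0.115 RPKM in the 48h-titled library and between 4.97 and 10.4 in the other 7. The group with the highest mean was that of the 24 h library for 39 members and that of the 48h-titled library for 32, against 29 for 12 h, 26 for fresh cells and 19 for organoids. These are means of 1 library at 24 h and for the 48h title and of 2 elsewhere, so the groups are not on an equal footing, and no test was made. The same split was not counted for other genes, so these counts do not show a trait of the carriers. The proliferation markers Mki67, Top2a and Cdk1 summed to 203 RPKM in the 48h-titled library, 13.1 at 24 h, 63.5 and 110 in organoids, and at most 4.23 in fresh cells and at 12 h.

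Promoter sequence was read for stress and metal motifs, since amino acid and metal carriers are textbook targets of such elements. Of the 145 members, 113 had a promoter in RefSeq (GRCm38.p6), and the 250 bases before each start were searched on both strands. The amino acid response core TGATGNAA occurred in 2 members (1.77%), beside 2.27% of 6697 genes at the members' level and 3.91% of all 27025 genes, and in 0 of the 16 called members with a promoter. The antioxidant response core TGACNNNGC occurred in 26 members (23.009%), beside 14.6% and 11.5%, and in 5 called ones, among them Slc25a25, Slc25a33, Slc26a1 and Slc35b2. The metal response cores TGCACNC and TGCGCNC, which differ in 1 letter, occurred in 16 and 26 members (14.2% and 23.009%), beside 12.3% and 25.8% of the 6697. The E-box CACGTG occurred in 18 (15.9%), beside 10.4%. These counts describe letters, not binding. Sequence after the start or farther upstream was not searched, so a low count does not show that a gene lacks the element. The windows below, on each gene's own strand from 5′ to 3′ with the matched letters in capitals, show both members with the amino acid response core and a called member with the antioxidant core.
Slc7a7, at 1 of its RefSeq starts (chr14:54418058-54418105, minus strand): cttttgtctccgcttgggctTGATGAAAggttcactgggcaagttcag
Slc50a1 (chr3:89270732-89270779, minus strand): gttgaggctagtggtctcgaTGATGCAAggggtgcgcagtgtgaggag
Slc35b2 (chr17:45563772-45563820, plus strand): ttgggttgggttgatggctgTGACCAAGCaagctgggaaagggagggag

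The pumps and exporters that work beside the carriers were tested in the same fit, where 6.81% of all genes passed at 12 h and 10.1% in organoids. Of 10 tested pump genes, Fxyd5, a regulator of the sodium pump, rose and Atp1b1, a sodium pump subunit, fell at 12 h, and Atp1b1 fell in organoids. Atp1b1 stood at 258 and 235 RPKM in fresh cells, 87.6 and 80.5 at 12 h, and 69.7 and 85.0 in organoids (adjusted p = 0.0393 and 0.0249, limma). Of 9 tested ABC exporters, Abcc4 rose at 12 h, and Abcb1a, the drug exporter, fell in organoids from 16.04 and 15.4 to 0.0264 and 0.144 RPKM. Of 17 tested carriers without an Slc symbol, the mitochondrial genes Sfxn1 and Mtch1 rose at 12 h, and Sfxn1, Mtch1 and Mtch2 rose in organoids. Mtch1 stood at 28.6 and 25.7 RPKM in fresh cells, 90.6 and 64.8 at 12 h, and 112 and 125 in organoids. Between organoids and 12 h culture, Fxyd5 fell, and 0 ABC exporters and 0 carriers without an Slc symbol passed. The share over all genes tested was 2.0% there.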

How the data were processed

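RNA of 8 libraries was measured by Smart-seq2 and Nextera XT tagmentation, per the labels' protocols. The authors deposited 1 table of RPKM values per gene and library, on GRCm38 and with edgeR per the submitters' processing notes. The aligner, counter, annotation, strandedness and any scaling factor were not given in the sources used here. Symbols, positions and biotypes came from GENCODE M21, which matched 47310 of 47729 identifiers. The members, lists and classes were chosen with earlier results of these data known.

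Values were taken as log2(RPKM + 1), so that changes of low genes are understated. Genes at 1 RPKM or more in at least 2 libraries were tested (12900, with all 145 members) in limma 3.58.1 under R 4.3.3, with 1 coefficient for each of 5 groups, a variance trend, 3 residual degrees of freedom and 3.65 prior ones. Two-sided p-values were adjusted (Benjamini-Hochberg) over all genes in each of 3 comparisons. Between 91.0% and 94.1% of small values were whole reads within 0.03, which gave the depths; floors cover counting error only, since PCR copies cannot be told from separate molecules. The procedure was tested on simulated data. Members could be named if they passed, had 1 of the 4 highest means in their class, stood among the 3 highest or lowest for a group by ratio to their own mean, or lay at the edge of the level. Alternatives were another pseudocount, filters, scalings, library weights, a replicate block and leaving libraries out. A few genes are counted but not named here.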

Additional observations from a re-analysis of the deposited data

How the results depend on the processing

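The differences of Slc2a2, Slc26a1 and Slc16a10 from fresh cells were wholly or partly built into the choice of members. Each of these genes passed in both comparisons with fresh cells. Slc2a2 and Slc26a1 fell below the filter of a mean of at least 5 RPKM, so they met 8 alternatives. All 27 gene calls kept their sign under every alternative run. Of the 27, 11 stayed past the threshold under each alternative that kept all libraries of the groups compared, these genes' calls included. None stayed past it without either fresh library, and 14 were lost in each fit that left out 1 library of the groups compared. At 12 h, the 6 higher calls became 1 with no filter on low values and 11 with library weights, and 0 when any 1 library was left out. The 6 lower calls became 3 with no filter, 12 with libraries centred on their medians, 10 with quantile normalization, 10 with only the groups compared, 11 with library weights, and between 0 and 2 when a library was left out. In organoids against fresh cells, the 5 higher calls became 8 with a filter of a mean of at least 5 RPKM, 1 with no filter, 8 with the replicate block, and between 0 and 5 when a library was left out. The 10 lower calls lay between 0 and 13 when a library was left out, and centring and quantile normalization each gave 15 lower beside 5 higher. Between organoids and 12 h culture, a pseudocount of 0.1 gave 1 higher and 1 lower call, centring gave 1 higher, and leaving out a library gave between 0 and 1 lower. The cause of these shifts was not tested, except that leaving out a library lowers the residual degrees of freedom. A lone library left in a group was taken to vary like the other groups.

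Same-numbered libraries deviated together with correlations of 0.19 (fresh and 12 h), 0.22 (fresh and organoids) and 0.02 (12 h and organoids), so the numbers are not taken to pair them. With the replicate block, 6 members were higher and 5 lower at 12 h, 8 higher and 12 lower in organoids against fresh cells, and 0 between organoids and 12 h. The fit on the 6 libraries of replicated groups, chosen after seeing the data, gave 6 and 6, 5 and 11, and 0. A level of 2 RPKM would give 178 members and one of 10 RPKM 99. Depth limits statements on values under about 0.1 RPKM.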
